A study of Rattus norvegicus with 9 samples.

Results

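The 5 genes described here encode the intermediate filament subunits of the neuronal axon. They are Nefl, Nefm and Nefh (the light, medium and heavy neurofilament chains), Ina (alpha-internexin) and Prph (peripherin). They were taken by symbol from a table of RNA-seq read counts of rat dorsal root ganglia (DRG), where the cell bodies of sensory neurons lie. Each symbol matched 1 row, so the members were 5 of 30446 genes in the table, and all 5 were among the 16627 genes that passed the filter on low counts. The animals were male Sprague-Dawley rats, and ganglia of both sides from thoracic level 12 to lumbar level 6 were collected at 30 days. The 9 libraries form 3 groups of 3, namely naive, sham-operated and spinal cord injured (SCI) animals. The design text calls the libraries of a group biological replicates without saying whether each holds 1 animal or several, and the p-values rest on the spread between libraries alone. The day, like sex and strain, is given for all 3 groups, the naive one included.

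Neurofilaments are built from subunits that share a coiled central rod. The light chain forms the core with the medium or heavy chain, whose long, heavily phosphorylated tails project from the filament and help to set axon calibre. Alpha-internexin can join the same polymer, and peripherin is the subunit typical of peripheral neurons. In the DRG the heavy chain is the common marker of large myelinated neurons, and peripherin is prominent in small unmyelinated ones. After a cut of the peripheral axon, sensory neurons are known to lower their neurofilament transcripts, whereas a cord injury spares that axon.

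RefSeq promoter windows (assembly GRCr8) were matched for Prph and Ina, and were not matched for the triplet of Nefl, Nefm and Nefh. The last 100 bases before the gene start are shown, on the plus strand, at chr7:132097189-132097288 for Prph and chr1:255838029-255838128 for Ina. Capitals mark a TATA box (TATAAA) or a GC box (GGGCGG), each searched on both strands.
Prph: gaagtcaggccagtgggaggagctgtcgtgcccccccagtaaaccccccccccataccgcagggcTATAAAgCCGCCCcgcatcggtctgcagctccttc
Ina: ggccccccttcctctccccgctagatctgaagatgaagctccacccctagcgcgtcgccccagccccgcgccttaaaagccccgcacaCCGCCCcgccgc
The Prph window held TATAAA beginning 35 bases before the start, with no overlap with the GC box that follows it, and the Ina window held no TATAAA. Over the 250 bases before the start, 12.9% of all 33469 rat promoter windows held TATAAA and 30.5% held a GC box. The GC content of those 250 bases was 64.4% for Prph and 70.8% for Ina, where the median window had 51.2%. Neither window held an AP-1 site (TGANTCA, in 6.34% of windows). In the RefSeq gene table Nefl and Nefm lie side by side on chromosome 15 with 1 pseudogene, Slc25a3-ps1, between them. Ina overlaps the gene Nt5c2 there and Nefm an unnamed locus, and the library kit does not mark strand, so reads of overlapping genes cannot be told apart.

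Library totals ran from 16724878 to 32060538 counts. The 3 naive libraries, sham 1 and SCI 1 were the 5 deepest, at 27534798 counts or more, and the other 4 held at most 22024200. Among all genes, edgeR's quasi-likelihood test called 0 of 16627 between SCI and sham, 48.5% between SCI and naive and 50.6% between sham and naive, at a Benjamini-Hochberg adjusted p under 0.05. The naive libraries thus stand apart as a group, the labels give no batch, and a batch made up of the naive libraries cannot be told apart from surgery or injury. Pan-neuronal markers were present (16 of 16 tested), although Eno2, a neuronal enolase, had group means of only 0.964 to 1.27 CPM (reads of a gene scaled to a common library size). Levels below are CPM after TMM scaling, a library-size correction, and n is 3 in every group.

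The 5 genes were among the abundant transcripts of the ganglion. Together they made up 2.39% ± 0.0469 of all counts in naive, 2.76% ± 0.558 in sham and 2.60% ± 0.0471 in SCI (SD). By mean reads per gene, which also reflect transcript length, Nefm, Nefl, Nefh and Prph ranked 2, 3, 5 and 15 of the tested genes and Ina ranked 1915. Transcript lengths were not used here, so levels are compared between libraries and not between genes.

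**Figure D1:**
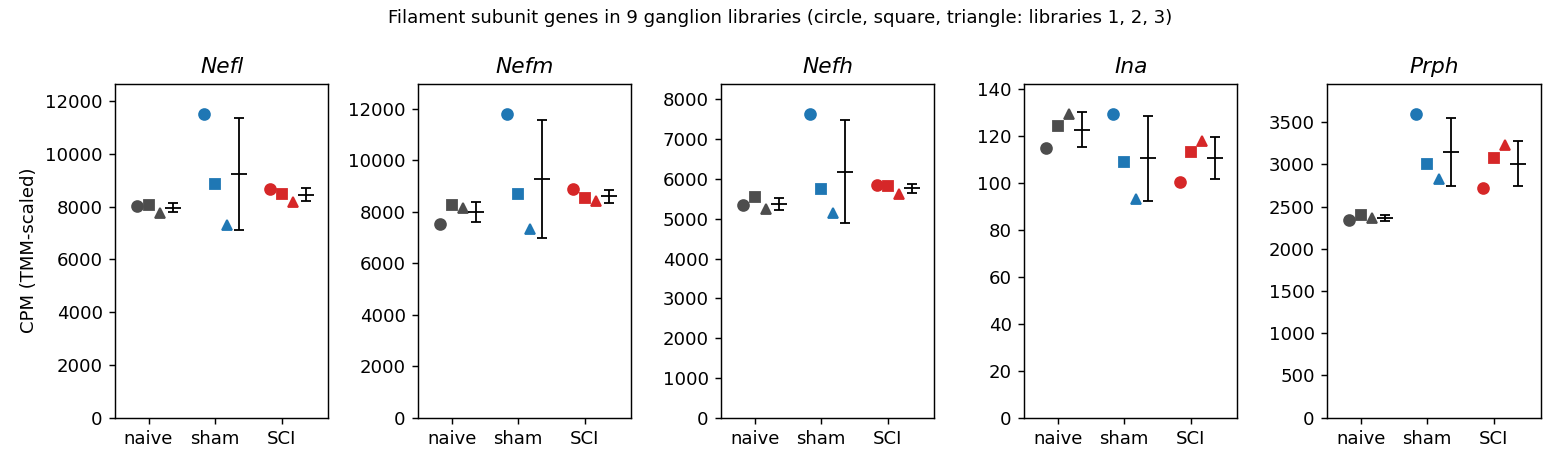
TMM-scaled CPM (vertical axes from 0) of Nefl, Nefm, Nefh, Ina and Prph by group, with 1 point per library and the group mean ± SD beside the points. Sham 1 is the highest library for Nefl, Nefm, Nefh and Prph, and all naive libraries lie below all others for Prph.

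No filament gene passed the test between SCI and sham, and the changes were small. Counts were 0 of 5 members in edgeR's quasi-likelihood test, in DESeq2 and in limma-voom, against 0% of all genes in edgeR (DESeq2 called 9 genes, none of them a member). At an unadjusted p under 0.05 edgeR counted 3.16% of all genes and none of the 5, whose smallest p was 0.361. All 5 fitted log2 changes were negative, from -0.13 for Nefl to -0.0031 for Ina, with a median of -0.10 where the median of all genes was -0.0008. Leaving out sham 1 turned all 5 positive, at 0.06 for Nefl, 0.10 for Nefm, 0.08 for Nefh, 0.13 for Ina and 0.04 for Prph. In none of the 5 genes were the SCI and sham libraries apart, which 6.41% of all genes were.

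Nefl, the light chain without which neurofilaments do not assemble, stood at 8035, 8077 and 7773 CPM in naive 1 to 3. The sham libraries held 11513, 8869 and 7312 CPM of it, and the SCI libraries 8687, 8483 and 8193. The sham libraries thus enclosed all libraries of both other groups, while the lowest SCI library lay just above the highest naive one. Between SCI and sham the log2 change was -0.13 (SE 0.13, edgeR adjusted p = 0.9999), with a 95% interval from -0.42 to 0.16. Between SCI and naive the log2 change was 0.09 (SE 0.13, edgeR adjusted p = 0.619), and between sham and naive it was 0.21 (SE 0.13, edgeR adjusted p = 0.204).

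Nefm, the medium chain, stood at 7532, 8265 and 8130 CPM in naive 1 to 3, at 11787, 8668 and 7311 in the sham libraries and at 8871, 8512 and 8393 in the SCI libraries. Its log2 change was -0.11 (SE 0.14) between SCI and sham, with a 95% interval from -0.41 to 0.20. It was 0.11 (SE 0.14) between SCI and naive and 0.21 (SE 0.14) between sham and naive, with edgeR adjusted p of 0.556 and 0.224. Nefh, the heavy chain with the long repeat-rich tail, stood at 5339, 5547 and 5236 CPM in naive, 7632, 5751 and 5152 in sham and 5838, 5831 and 5628 in SCI. Here the log2 change was -0.10 (SE 0.12) between SCI and sham, with a 95% interval from -0.37 to 0.17. Against naive it was 0.10 (SE 0.12) in SCI and 0.20 (SE 0.12) in sham, with edgeR adjusted p of 0.522 and 0.193. The 3 genes shared 1 arrangement of libraries, with sham 1 on top, sham 3 at the bottom, below all naive libraries too, and the SCI libraries close together above the naive ones.

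Without sham 3, edgeR called all 3 triplet genes and Prph higher in sham than in naive, where 51.2% of all genes were called in either direction. The log2 changes were then 0.36 for Nefl, 0.37 for Nefm and 0.32 for Nefh (edgeR adjusted p = 0.00508, 0.00942 and 0.0122). Without sham 1 none of the triplet was called, where 51% of all genes were, and the Nefm change was -0.0046. The order of the group means was sham, SCI and naive for Nefl, Nefm and Nefh alike, and no pair of groups passed the test. SCI and naive libraries did not overlap for Nefl, Nefm, Nefh and Prph, all higher in SCI, and 32.2% of all genes were apart in that direction.

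**Figure D2:**
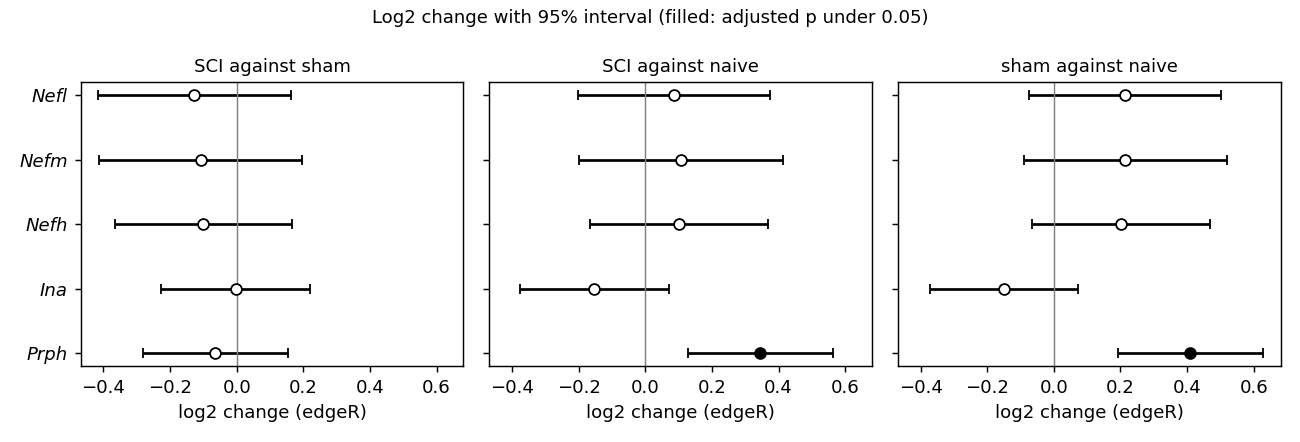
Log2 change of each gene (horizontal axis) with its 95% interval in the 3 comparisons, from 1 fit to all 9 libraries. Filled points, Prph at 0.35 in SCI and 0.41 in sham against naive, passed an adjusted p of 0.05, and the 2 comparisons with naive share the naive libraries.

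Prph was the 1 member that passed against naive, higher in both operated groups. This gene, whose product marks peripheral and above all small sensory neurons, stood at 2336, 2404 and 2361 CPM in naive 1 to 3. It stood at 3597, 3007 and 2833 CPM in sham 1 to 3 and at 2718, 3078 and 3230 in SCI 1 to 3. All 6 libraries of operated rats lay above all 3 naive libraries, and sham and SCI overlapped. Prph rose 1.27-fold in SCI against naive, a log2 change of 0.35 (SE 0.10) with an edgeR adjusted p of 0.0122. In sham it rose 1.33-fold, by 0.41 (SE 0.10) with an edgeR adjusted p of 0.00428. The naive libraries are shared by both comparisons. The counts were thus 1 of 5 members in each comparison, where 23.9% of all genes were called higher in SCI and 24.7% higher in sham. Libraries were apart and higher for 27.5% of all genes in sham against naive, and for Prph alone among the 5. Between SCI and sham its log2 change was -0.06 (SE 0.10), with a 95% interval from -0.28 to 0.15.

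The Prph call in SCI was lost without naive 1 (log2 change 0.34, edgeR adjusted p = 0.0505), naive 3 (0.33, 0.0508) or SCI 3 (0.29, 0.0666), and the call in sham was kept under every library left out. With library sizes set by the summed pan-neuronal list, Prph was not called in SCI (0.14, edgeR adjusted p = 0.0717) or in sham (0.14, 0.0592), and that scaling moved the median of all genes by -0.20 in SCI and -0.26 in sham. Relative to those medians, Prph changed by 0.33 and 0.40. A rescaling moves all genes almost alike, so subtracting the median nearly restores the main changes and is not a separate result. With the geometric mean of the same list, chosen after seeing the data, both changes were 0.33 and both were called.

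Ina, the subunit found with the triplet in axons, lay lower in both operated groups without passing the test. It stood at 115, 124 and 129 CPM in naive 1 to 3, at 129, 109 and 93.3 in sham 1 to 3 and at 101, 113 and 118 in SCI 1 to 3. The groups overlapped in all 3 comparisons, with sham 1 at the top of the naive range and SCI 3 inside it. Against naive the log2 change was -0.15 in SCI (SE 0.10, edgeR adjusted p = 0.241) and -0.15 in sham (SE 0.10, edgeR adjusted p = 0.248). Without sham 1 the change in sham was -0.29 and passed (edgeR adjusted p = 0.0110). In a fit of only the SCI and naive libraries the change in SCI was -0.16 and passed (edgeR adjusted p = 0.0287). Nt5c2, the gene that Ina overlaps, stood at 48.5 ± 1.19 CPM in naive, 46.3 ± 1.07 in sham and 43.3 ± 2.2 in SCI, with log2 changes against naive of -0.07 in sham and -0.16 in SCI (edgeR adjusted p = 0.386 and 0.0448), and its part in the Ina values was not tested.

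**Figure D3:**
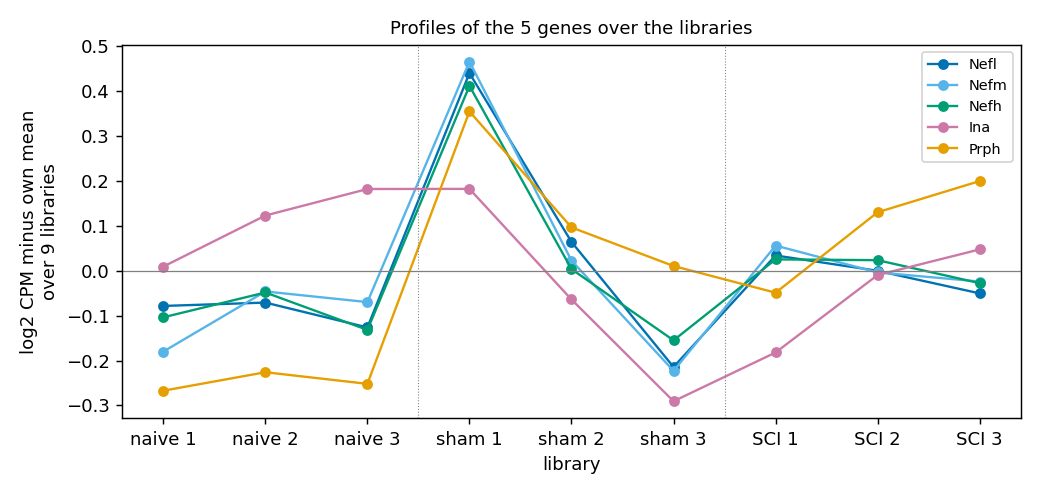
Log2 CPM of each gene minus its own mean over the 9 libraries (vertical axis), by library; lines only join the points of a gene. Nefl, Nefm and Nefh run together and peak in sham 1, Prph lies lowest in the 3 naive libraries, and Ina lies at 0.01 to 0.18 there.

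Ratios of members within a library do not depend on scaling and showed how closely the triplet kept together. The log2 ratio of Nefl to Nefm reads spanned 0.16 over all 9 libraries, that of Nefl to Nefh 0.12 and that of Nefm to Nefh 0.14. The ratio of Ina to Prph spanned 0.74. Group means of the Nefl to Nefm ratio were -0.0016 in naive, -0.0002 in sham and -0.0233 in SCI (log2), with exact p = 0.900 in a permutation test over the 3 groups.

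For Ina against Prph the log2 ratio of reads averaged -4.27 ± 0.08 over the naive, -4.83 ± 0.08 over the sham and -4.77 ± 0.01 over the SCI libraries (SD). The naive libraries held -4.35, -4.27 and -4.19, the sham libraries -4.80, -4.78 and -4.92 and the SCI libraries -4.76, -4.76 and -4.78, so that naive lay apart from both others. The two-sided exact permutation test over all 1680 divisions of the libraries gave p = 0.00357, the smallest it can give, and 0.0357 after adjustment over the 10 pairs. This was the 1 pair of 10 that passed. Pairs of Ina with Nefl, Nefm and Nefh had an exact p of 0.0357, 0.0321 and 0.0214 and an adjusted p of 0.0893 each. SCI and sham differed in the Ina to Prph ratio by 0.07 without overlap, at an exact permutation p of 0.10, the smallest that 3 against 3 libraries allow. The call of the pair was lost without sham 3, SCI 2 or SCI 3 (exact permutation test, adjusted p = 0.0714, 0.143 and 0.0893). It was also lost on thinning all libraries to the shallowest total (adjusted p = 0.0595), with replicate number as a block (0.0556) and as a deviation from a linear fit on log2 library total (0.371). That last fit held no term for group. Because the naive libraries are all deep, it can take up a group difference, and no part of depth is read from that loss.

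Prph and Ina were also set against the summed reads of the triplet. There were 11.2, 11.0 and 11.2 Prph reads per 100 triplet reads in naive 1 to 3, 11.6, 12.9 and 14.3 in sham 1 to 3 and 11.6, 13.5 and 14.5 in SCI 1 to 3. Naive lay below all others, but sham 1 and SCI 1 lay near it, and these 5 libraries are the deepest. The 4 shallower libraries held 12.9 to 14.5. Library depth thus moved with the Prph share. The test over the 3 groups gave an exact permutation p of 0.129 for this ratio. With log2 library total as a covariate, chosen after seeing the data, Prph was still called against naive, with log2 changes of 0.37 in SCI and 0.44 in sham (edgeR adjusted p = 0.0260 and 0.0205). Among the 5 deep libraries alone, the fitted log2 difference in Prph from the 3 naive libraries was 0.20 for SCI 1 and 0.61 for sham 1. No test is read from these 1-library arms, since the SD of Prph log2 CPM was 0.02 in naive but 0.18 in sham and 0.13 in SCI.

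Ina reads per 100 triplet reads were 0.549, 0.568 and 0.612 in naive 1 to 3, 0.419, 0.469 and 0.472 in sham 1 to 3 and 0.430, 0.497 and 0.531 in SCI 1 to 3. Every naive library lay above every other library. The exact permutation p over the 3 groups was 0.0286. Within the deep libraries sham 1 and SCI 1 held the 2 lowest values of all 9, below the 3 naive libraries. As a deviation from a linear fit on log2 library total, chosen after seeing the data, the exact permutation p was 0.118 for Ina and 0.261 for Prph. This fit too held no term for group and can take up a group difference, so no part of depth is read from it.

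**Figure D4:**
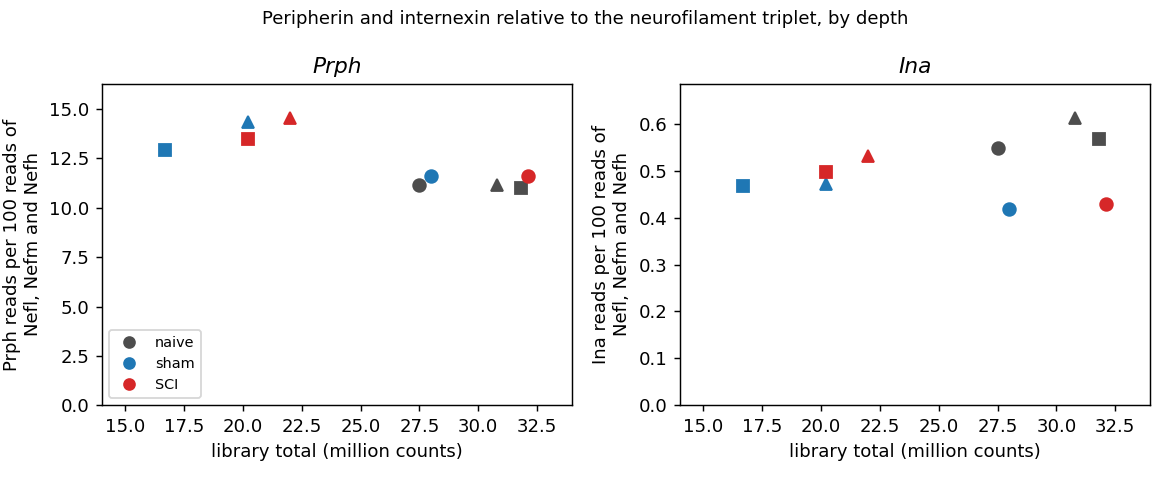
Reads of Prph (left) and Ina (right) per 100 reads of Nefl, Nefm and Nefh together (vertical axes from 0) against the library total, with 1 point per library, coloured by group. The 4 shallower libraries hold 12.9 to 14.5 for Prph and the 5 deepest 11.0 to 11.6, whereas for Ina the naive libraries, all deep, lie above all others.

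The sham libraries spread widely for the triplet, and markers of other cell types spread with them in the opposite direction. The SD of log2 CPM was 0.33 for Nefl, 0.35 for Nefm and 0.29 for Nefh among sham libraries, against 0.04, 0.04 and 0.03 among SCI libraries. In sham these were above 95.4%, 96.7% and 91.9% of the 2246 genes with a mean of at least 100 CPM, whose median SD was 0.13. For Prph and Ina the SD was 0.18 and 0.24 in sham.

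Summed levels of several marker lists followed the triplet's order over the sham libraries or its reverse, and others did not. The 16 pan-neuronal genes together held 17404, 14891 and 13553 CPM in sham 1 to 3, in the order of the triplet. The 12 Schwann cell genes held 18751, 20626 and 23489 CPM, the 12 macrophage genes 670, 858 and 1002 and the 10 genes of fibroblasts and meninges 2406, 3290 and 4039, all in the reverse order. The endothelial list also ran in reverse (192, 226 and 265 CPM), as did the satellite glia list. The spinal cord list ran with the triplet at a low level (15.8, 14.04 and 11.2 CPM). The skeletal muscle list (175, 185 and 160 CPM) and the blood list (381, 582 and 491 CPM) followed neither order. In bulk tissue, fewer cells of a type and less RNA per cell cannot be told apart, and the part of cell makeup in the spread was not tested. Between naive and the operated groups some of these lists differed as well and others overlapped. The endothelial list held 239 to 260 CPM in naive, 192 to 265 in sham and 216 to 245 in SCI. Schwann cell genes summed to 31773 to 33526 CPM in naive, 18751 to 23489 in sham and 20384 to 24634 in SCI. Of the 12, 9 were called lower and 1 higher in each operated group. Over all genes 24.6% were called lower in SCI and 25.9% in sham. Macrophage genes summed to 515 to 641 CPM in naive, 670 to 1002 in sham and 830 to 908 in SCI, with 8 of 12 called higher and 2 lower in each. Over all genes 23.9% were called higher in SCI and 24.7% in sham. All marker lists were chosen with earlier results of these data known, so these counts are not a test.

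**Figure D5:**
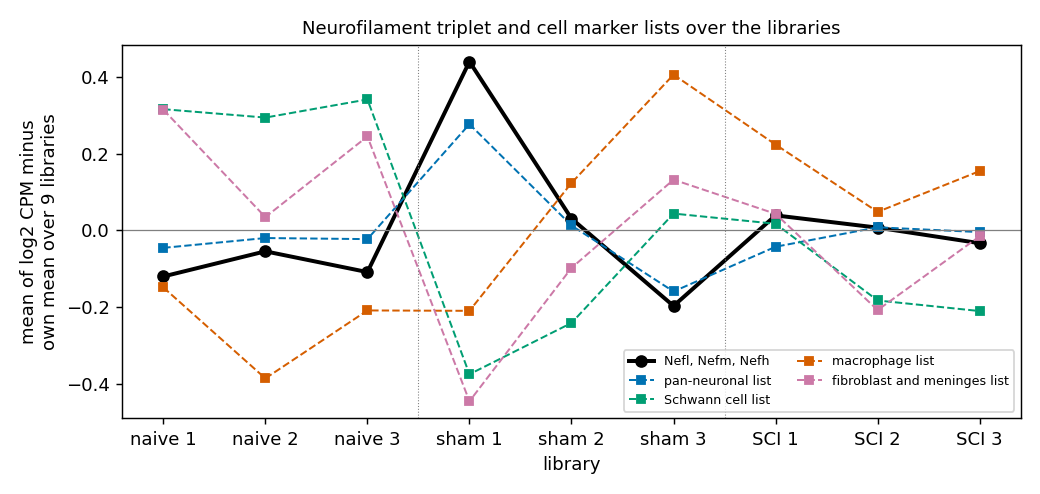
Mean over genes of log2 CPM minus each gene's own mean over the 9 libraries (vertical axis), by library, for Nefl, Nefm and Nefh together and for 4 marker lists; lines only join the points of a list. In sham 1 the triplet and the pan-neuronal list lie highest and the Schwann cell and fibroblast lists lowest, and in sham 3 the triplet and the pan-neuronal list lie at their lowest.

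Genes with the most similar profile were found as those with the smallest root mean square difference to a member in centred log2 CPM over the 9 libraries, among 9487 genes with a mean of at least 10 CPM. For Nefl the nearest gene of all was Nefh (0.0339), and for Nefm it was Nefl (0.0445), followed by Nefh (0.0463). Nefh itself was nearest to Hhatl (0.0337) and Ptprn (0.0338), the latter a protein of dense-core secretory vesicles, followed by Nefl (0.0339). Pla2g3, a secreted phospholipase, and Cds1, an enzyme of phosphatidylinositol synthesis, came next for Nefl, at 0.0426 and 0.0441. Among the genes nearest to Prph were Tmem59l (0.0368) and the glycolytic enzyme gene Gapdh (0.0380), and the triplet genes ranked 1884 to 2389 from it. Ina was nearest to Slc37a1 (0.0482), Dapk1 (0.0499) and Zfp804a (0.0534), with the triplet at ranks 2489 to 2729 and Prph at 5720. All these genes share the same 9 libraries, so that likeness covers group, depth and cell makeup together.

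Among other intermediate filament genes, 9 of 11 listed were tested, and none was called between SCI and sham. Against naive 3 were called higher in SCI, and 2 higher and 1 lower in sham. Of all genes, 48.5% were called in either direction in SCI and 50.6% in sham, with 23.9% and 24.7% called higher. Gfap, a glial filament, fell in sham (log2 change -0.68, edgeR adjusted p = 0.000813) and had a value of -0.30 in SCI (adjusted p = 0.0658). The satellite glia list went the other way, summing to 6366 to 6616 CPM in naive, 9753 to 12917 in sham and 10490 to 11380 in SCI. In each operated group 6 of its 10 genes were called higher and 1 lower, beside the shares of all genes given above. Des, the muscle filament desmin, rose in sham (0.69) and in SCI (0.42). The skeletal muscle list (15 genes tested) summed to 76.7 to 118 CPM in naive, 160 to 185 in sham and 77.4 to 119 in SCI. Of these muscle genes 11 were called higher in sham, where 24.7% of all genes were. Their part in the Des values was not tested. Sync, syncoilin, rose in both (0.32 and 0.41; edgeR adjusted p = 0.0279 and 0.00808). Lmnb2, a nuclear lamin, rose in SCI (0.53, edgeR adjusted p = 0.0101).

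Genes listed as partners of neurofilaments at microtubules, actin and the membrane changed far more than the filament genes. That list was chosen with earlier results of these data known. Of 14 tested, 12 were called lower and 2 higher in SCI against naive, and as many in sham, where 24.6% and 25.9% of all genes were called lower. The median log2 change of the list was -0.81 in SCI and -0.85 in sham, against 0.01 and 0.0005 over all genes. Map1b, a microtubule-associated protein of growing axons, fell from 6169 ± 108 CPM in naive to 2373 ± 401 in sham and 2428 ± 182 in SCI, where the log2 change was -1.35 (SE 0.11) and the edgeR adjusted p 1.87e-06. The spectraplakins Dst and Macf1, giant linkers between filament systems, had log2 changes of -0.92 and -0.997 in SCI. Ank2, a membrane adaptor of the axon, had -1.14. The 2 that rose, named after their values were seen for Bin1, were Map6 (0.71 in SCI), which stabilises microtubules, and Bin1 (0.23). Between SCI and sham none of the 14 was called, with a median of 0.03.

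Enzymes that act on neurofilament proteins were called in both directions. Of 19 kinases and phosphatases tested, 6 were called higher and 5 lower in SCI against naive, and 7 and 5 in sham, shares near those of all genes (23.9% higher and 24.6% lower in SCI, 24.7% and 25.9% in sham). Cdk5, a kinase of the neurofilament tail, rose from 132 ± 4.79 CPM in naive to 175 ± 7.97 in sham and 164 ± 4.14 in SCI, a log2 change of 0.31 in SCI (edgeR adjusted p = 0.00121). Gsk3a, another tail kinase, rose by 0.34 in SCI, and the kinases Rock1 and Rock2 fell by 1.17 and 0.70 on the log2 scale. In the turnover list, 4 of 10 were called higher and 3 lower in each operated group. Trim2, a ubiquitin ligase of the light chain, stood at 330 ± 10.9 CPM in naive and fell to 229 ± 12.2 in SCI, with a log2 change of -0.53 and an edgeR adjusted p of 8.84e-05. Hspb1, a small heat shock protein that interacts with neurofilaments, rose by 0.41 in SCI and 0.59 in sham (edgeR adjusted p = 0.00101 and 5.46e-05). Psmd4, a proteasome subunit, rose by 0.43 in SCI, and Cast, the inhibitor of calpain proteases, fell by 0.44.

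Motors that carry neurofilaments, 10 tested, had 3 called higher and 5 lower in each operated group, where 23.9% of all genes were higher and 24.6% lower in SCI. Dync1h1, the dynein heavy chain, stood at 562 ± 50.6 CPM in naive and fell to 241 ± 24.4 in SCI, with a log2 change of -1.22 (SE 0.12) and an edgeR adjusted p of 5.94e-06. Kif5b and Kif5c, kinesin heavy chains, had log2 changes of -0.64 and -0.39 in SCI, and Klc1, a kinesin light chain, rose by 0.25 (edgeR adjusted p = 0.0486). Of 9 tubulin genes 2 were called, both higher, in SCI. Tubb2b, which growing neurons use, rose by 0.36 in SCI and 0.29 in sham (edgeR adjusted p = 0.0107 and 0.0280), and Tubb6 rose by 0.31 in SCI (edgeR adjusted p = 0.0132). No gene of these lists was called between SCI and sham, where 0% of all genes were.

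Neuron markers gave the setting for the heavy chain and peripherin. Of 18 genes of large myelinated neurons, 3 were called higher and 6 lower in SCI against naive, and 5 and 7 in sham, with medians of -0.03 and 0.03. Over all genes 48.5% were called in SCI and 50.6% in sham, so the share of these markers called in SCI was near that of all genes. The share of these markers called in sham was above that of all genes, a difference that was not tested. Pvalb, parvalbumin of proprioceptors, rose (log2 change 0.87 in SCI), and Esrrg and Etv1, transcription factors, had -0.96 and -0.51. Of 19 genes of small unmyelinated neurons, 3 were called higher and 5 lower in SCI, and 3 and 6 in sham, with medians of -0.10 and -0.02. The small-neuron sodium channels Scn10a and Scn11a had log2 changes of -0.55 and -0.97 in SCI, opposite in sign to Prph, and Sst, somatostatin, had 0.59. Of the 16 pan-neuronal genes 5 were called higher and 2 lower in SCI, among them Thy1 (0.48) and Gap43 (0.36) higher and Elavl4 (-0.77) and Syt1 (-0.73) lower.

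Genes known to change after peripheral axotomy were set beside the triplet. Of 14 tested, 10 were called higher and 2 lower in SCI against naive, and 7 and 2 in sham, where 23.9% and 24.7% of all genes were called higher. This list too was chosen with earlier results of these data known, so its excess over all genes is not a test. None of the triplet was called in either direction. Stmn4, a stathmin, rose by 0.73 in SCI (edgeR adjusted p = 1.42e-05). Vip, a neuropeptide, stood at 0.413 ± 0.167 CPM in naive, 1.09 ± 0.609 in sham and 3.21 ± 0.591 in SCI, and between SCI and sham its unadjusted p was 0.000142 and its edgeR adjusted p 0.442. Flrt3, an adhesion protein, and Cacna2d1, a calcium channel subunit, had -0.83 and -0.85.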

How the data were processed

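Total RNA was sequenced as paired-end TruSeq V2 libraries, per the labels' protocols. FastQC, Trimmomatic, TopHat2, HTSeq and DESeq2 are named in the submitters' processing notes without versions, and genome build and annotation were not given in the sources read. The authors deposited whole-number read counts per gene for 9 libraries, not normalized, and all count columns were used.

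The members and gene lists were chosen with earlier results of these data known. Counts were fitted with edgeR 4.0.16 in R 4.3.3 (quasi-likelihood, TMM, default low-count filter, 1 mean per group, all 9 libraries, 6 residual degrees of freedom before moderation) with adjustment over all 16627 genes tested. Intervals use the moderated degrees of freedom. Log2 CPM used a prior count of 2. Of 233 listed symbols 228 matched and 219 were tested. Named genes were the 5 members, up to 4 per list with the smallest p among the 3 groups and up to 2 with the smallest p between SCI and sham, and the 3 nearest profiles per member; not all are printed, and 1 of the nearest profiles is not reported here. Ratios were compared by exact permutation. The fit was tested on simulated counts. DESeq2 1.42.0 and limma 3.58.1 served as alternatives.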

Additional observations from a re-analysis of the deposited data

How the results depend on the processing

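Over the alternatives, 358 single-gene log2 changes kept their direction and side of the threshold, 14 gained a call, 7 lost one and 21 turned sign; where no cause is named, the cause was not tested. No alternative called a member between SCI and sham. Against naive in SCI, 2 members were called in a fit of only the groups compared (58.4% of all genes) and 0 with a fold of at least 1.5 required (17.1%). Against naive in sham, 0 were called with that fold (19.5% of all genes) and 2 with geometric mean pan-neuronal scaling (34.9%). The deepest-library, geometric mean, depth-covariate and sham 2 settings were chosen after seeing the data. In the 5 deepest libraries, and with sham 2 as the only sham library, a group of 1 library has no spread of its own. No count of members is read from those settings, although the gained calls above include some from them.

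With 1 library left out, the members called ran from 0 to 1 for SCI against naive, 1 to 4 for sham against naive and 0 to 4 for any difference among groups, and the member pairs called from 0 to 5. Of all genes, 39.8% to 54.5% were then called for SCI against naive, 43.2% to 51.2% for sham against naive and 38.8% to 56.3% for any difference. The SCI against sham changes then ran from -0.27 to 0.061 for Nefl, -0.26 to 0.10 for Nefm, -0.22 to 0.079 for Nefh, -0.12 to 0.13 for Ina and -0.14 to 0.041 for Prph. The sham against naive change of Nefm ran from -0.0046 to 0.37.

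Signs turned under other settings too. For Ina, SCI against sham became 0.0165 with library totals only, 0.0651 with summed pan-neuronal scaling, 0.0690 with its geometric mean, 0.0005 with no low-count filter, 0.0098 in limma-voom and 0.0111 with sham 2 alone. Ina in sham against naive was 0.0833 in the 5 deepest libraries. Summed pan-neuronal scaling gave Nefl -0.1177, Nefm -0.0959 and Nefh -0.1029 in SCI and -0.0701, -0.0700 and -0.0790 in sham against naive. Relative to the shifted median of all genes none of these was negative, but that step only undoes the scaling. Summed pan-neuronal scaling also exchanged the member called, Ina (-0.36 in SCI, -0.43 in sham) in place of Prph. Of the 10 member pairs, of which Ina to Prph had been called, 0 were called after thinning to the shallowest total, 4 at an adjusted p under 0.1, and 0 as deviations from a fit on depth. That fit held no term for group and can take up a group difference.

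Replicate numbers did not pair the libraries, with correlations of same-numbered libraries from -0.0946 to 0.124 over 9 pairs and 2 of 9 libraries best matched to their own number. With the number as a replicate block, 1 member stayed called against naive in SCI (47.2% of all genes) and 1 in sham (49%). Between SCI and sham 0 were called, and 0 member pairs passed. The block allows no exact p below 0.0278, which 5 pairs reached (adjusted p = 0.0556 each). No pair could pass there unless more than 5 reached that smallest p. The 95% intervals of the SCI against sham changes in the report give the precision that this depth and these 3 libraries a group allow.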
